A study of Mus musculus with 8 samples.

Results

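The long noncoding RNAs Malat1, Neat1, Meg3, Miat, Gas5 and Rian were followed through all probe sets annotated with exactly 1 of these 6 symbols. These 6 of 18193 genes with a symbol had 30 of the 45101 probe sets on the array, 7 for Malat1, 2 for Neat1, 11 for Meg3, 2 for Miat, 4 for Gas5 and 4 for Rian. The genes were chosen because Malat1 was already known to be higher with ethanol in these data, so every comparison of ethanol with no ethanol below is a description. Where adjusted p or counts of probe sets passing are given for it, they are no support for a difference in these RNAs. The cells were NS5, a mouse neural stem cell line from brain at embryonic day 11.5, and there were 4 groups of 2 arrays each: ethanol with TGF-beta1, TGF-beta1 alone, ethanol with FGF2, and FGF2 alone. All groups had first spent 24 h with FGF2 and EGF and 4 h without growth factors, and the treatment lasted 48 h, with ethanol at 400 mg/dl where it was given. The labels give each factor as 10 ng/ul, a unit that the signals cannot check. They do not say whether the 2 arrays of a group came from separate cultures, so the errors below may be technical.

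Long noncoding RNAs act as RNA and code for no known protein. Malat1 is an abundant nuclear RNA that gathers in nuclear speckles beside splicing factors, and Neat1, its neighbour on the chromosome, is the scaffold on which paraspeckles are built. Miat, also called Gomafu, is a nuclear RNA of neural cells. Gas5 is the host of several small nucleolar RNAs, was found as a transcript that accumulates in growth-arrested cells, and is degraded during active translation by nonsense-mediated decay. Meg3 and Rian are maternally expressed RNAs of the imprinted Dlk1-Dio3 domain.

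Array signals are linear intensities, and each array had been scaled to a 2% trimmed mean of 500. Signals of different probe sets cannot be set against each other, so every comparison below is within a probe set. Of the 30 probe sets, 19 had a mean above the signal filter and entered the fit over 27022 probe sets: 7 for Malat1, 1 for Neat1, 3 for Meg3, 2 for Miat, 4 for Gas5 and 2 for Rian. Passing that filter requires signal in some arrays, so the 19 are not a sample of all 30. In bulk RNA, fewer cells of a type and less RNA per cell cannot be told apart.

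One feature of the arrays bears on every value that follows. Fn1, a TGF-beta target that encodes fibronectin, read 124 and 8226 on the 2 arrays labelled ethanol with TGF-beta1, against 3015 and 4109 with TGF-beta1 alone. It read 6828 and 116 on the arrays labelled ethanol with FGF2, against 120 and 139 with FGF2 alone. Pmepa1, another TGF-beta target, read 1081 and 7454, against 8093 and 7315, and then 8198 and 1057, against 935 and 548, in the same order of groups. Both replicate 1 arrays with ethanol therefore stood with the other growth factor, and the labels are kept here as given, and the average ethanol difference of each RNA is also given without those 2 arrays. The average over both growth factors uses each ethanol array with equal weight, whichever factor it had. Neural stem markers were present, with 10 of 11 above the filter, and 0 of 6 endothelial markers were, the highest of them reading 88.2. Pearson's r between arrays was 0.916 to 0.975.

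The genes lie, in GRCm38.p6, at chr19:5795690-5802672 (Malat1), chr19:5824708-5845480 (Neat1), chr12:109540996-109571729 (Meg3), chr12:109603945-109661716 (Rian), chr5:112213228-112228948 (Miat) and chr1:161034601-161038539 (Gas5), and all 6 are annotated as long noncoding RNA. RefSeq promoter windows, from 250 bases before to 50 bases after a gene start, were available for 5 of the 6, and Neat1 is named only. Each window was searched on both strands for TGACG, the half-site bound by CREB and ATF factors, and for the full palindrome TGACGTCA. These motifs were chosen after the sequences had been read. The windows with a match are shown, with every half-site in capitals and the strand of the gene written 5′ to 3′. Malat1 and Gas5 were of interest because their brightest probe sets followed each other (r = 0.92), and Meg3 because it had almost no signal. The Gas5 probe sets agreed among themselves at only 0.28 to 0.86. A link between these sites and the signals was not tested.
Malat1 promoter, chr19:5802623-5802922, minus strand: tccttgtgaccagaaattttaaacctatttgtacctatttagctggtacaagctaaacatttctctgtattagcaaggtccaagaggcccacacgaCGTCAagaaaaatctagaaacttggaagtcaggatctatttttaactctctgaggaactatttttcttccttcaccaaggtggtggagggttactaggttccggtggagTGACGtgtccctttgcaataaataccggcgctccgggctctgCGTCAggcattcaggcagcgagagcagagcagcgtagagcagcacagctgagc
Gas5 promoter, chr1:161034916-161035215, plus strand: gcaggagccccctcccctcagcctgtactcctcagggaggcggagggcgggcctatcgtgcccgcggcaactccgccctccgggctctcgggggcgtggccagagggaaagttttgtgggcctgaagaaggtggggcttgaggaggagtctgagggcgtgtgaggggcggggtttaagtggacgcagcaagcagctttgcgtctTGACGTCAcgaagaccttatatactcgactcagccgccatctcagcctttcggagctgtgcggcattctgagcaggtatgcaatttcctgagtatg
Meg3 promoter, chr12:109540746-109541045, plus strand: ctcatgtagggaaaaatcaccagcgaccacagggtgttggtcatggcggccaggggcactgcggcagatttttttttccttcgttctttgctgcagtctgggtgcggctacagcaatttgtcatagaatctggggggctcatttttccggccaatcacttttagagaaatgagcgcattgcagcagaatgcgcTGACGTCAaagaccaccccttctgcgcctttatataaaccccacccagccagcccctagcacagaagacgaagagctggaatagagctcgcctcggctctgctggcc
Malat1 held 3 half-sites, at 154, 45 and 3 bases before the gene start, and 0 full sites. The Gas5 window shown belongs to another start, which lies inside the gene coordinates given above. It held 1 full site, whose 2 overlapping half-sites lie 46 and 43 bases before that other start. The Meg3 window shown held 1 full site, at 57 and 54 bases. The Gas5 window at the start of the gene coordinates, chr1:161034351-161034650, held 0, as did the other Meg3 window and those of Miat and Rian. Of 32851 promoter windows of the same length, 20.8% held the half-site and 1.79% the full site, so the half-site is common, and a match in these letters is a description of the sequence only.

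Malat1 was higher with ethanol in all 7 of its probe sets. The signal on the 7 ran 1.72-fold to 2.79-fold higher when averaged over both growth factors, 1.32-fold to 4.37-fold higher within TGF-beta1 and 1.54-fold to 2.24-fold higher within FGF2. In each probe set, both arrays with ethanol and TGF-beta1 lay above both with TGF-beta1 alone, and both with ethanol and FGF2 lay above both with FGF2 alone. This order of 2 arrays against 2 is a description, given without the share of all probe sets that had it.

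The brightest probe set of Malat1, 1418188_a_at, read 11280.2 and 10276 with ethanol and TGF-beta1, against 4231 and 4653 with TGF-beta1. It read 17114 and 11790.1 with ethanol and FGF2, against 5904 and 10350.4 with FGF2. The second FGF2 array sat just above the lowest ethanol array, so the 4 ethanol arrays and the 4 without overlapped by that 1 array. Averaged over the growth factors the log2 fold change was 1.07 ± 0.22 (SE), or 2.10-fold, and it was 1.27 ± 0.31 within TGF-beta1 and 0.86 ± 0.31 within FGF2.

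The largest difference was on 1427285_s_at, which read 1424 and 1044 with ethanol and TGF-beta1, against 274 and 249 with TGF-beta1. With ethanol and FGF2 it read 1021 and 1146, against 662 and 535 with FGF2. The log2 fold change with ethanol was 1.48 ± 0.19 on average and 2.13 ± 0.27 within TGF-beta1, where the means were 1234 ± 269 and 261 ± 17.8 (SD, n = 2 each). On this probe set, and on 1418189_s_at, 1429060_at, 1438403_s_at and 1452378_at, every ethanol array lay above every array without ethanol. Those 5 probe sets, of 19 for the 6 genes together, compare with 3.17% of all 27022 probe sets in which the 4 ethanol arrays lay above the other 4. Since the genes were chosen on this contrast, the share of 5 in 19 has no meaning as support.

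One probe set of Malat1 went its own way. On 1436202_at the signals were 3200 and 2524 with ethanol and TGF-beta1, against 2090 and 2200 with TGF-beta1, and 3410 and 3695 with ethanol and FGF2, against 3354 and 733 with FGF2. The second FGF2 array was the lowest of all 8 here, while on 5 of the other 6 it was the highest of the arrays without ethanol. Its r with the other 6 probe sets was 0.15 to 0.45 over 8 arrays, while those 6 agreed among themselves at 0.84 to 0.99 in 15 pairs. Which stretch of the transcript each probe set reads was not analysed here.

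**Figure D1:**
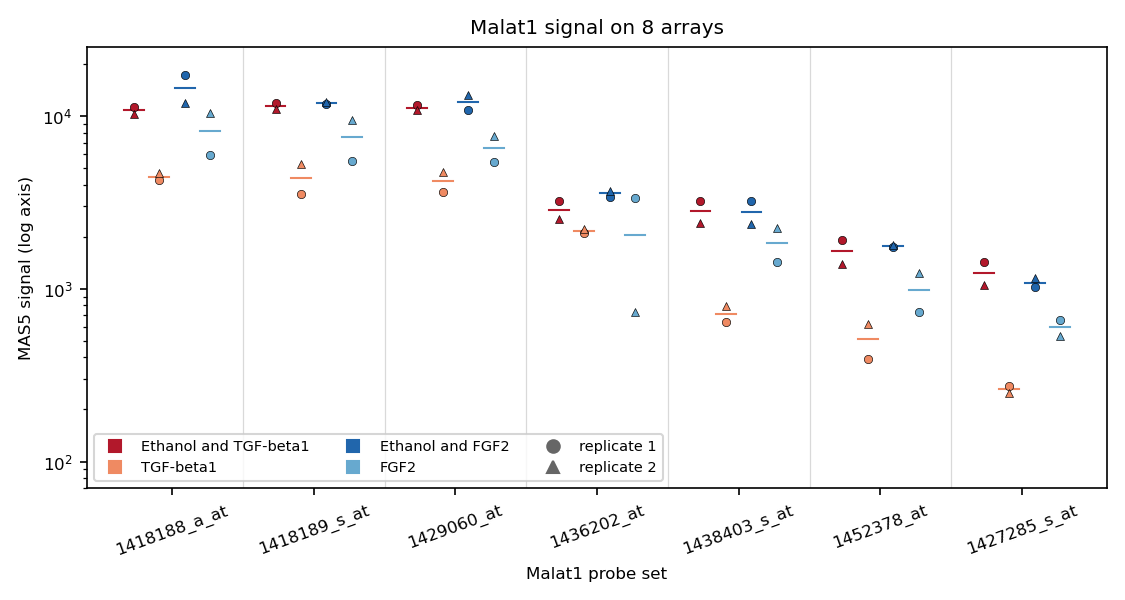
Array signal (linear units, log axis) of the 7 Malat1 probe sets in the 4 groups, ethanol with TGF-beta1 left of TGF-beta1 and ethanol with FGF2 left of FGF2, with circles for replicate 1, triangles for replicate 2 and short lines for group means. On 1427285_s_at the ethanol arrays lie between 1021 and 1424, above all arrays without ethanol, and on 1436202_at the second FGF2 array falls to 733.

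Against the rest of the array, 4 of the 19 probe sets (1429060_at, 1438403_s_at, 1452378_at and 1427285_s_at, all of Malat1) passed an adjusted p of 0.05 for ethanol on average, with limma and adjustment over all probe sets, where 1.05% of probe sets did so, 0.0999% higher and 0.955% lower. Within TGF-beta1, 2 of the 19 passed (1438403_s_at and 1427285_s_at), against 0.437% of all (0.0296% higher), and within FGF2 none of the 27022 passed (0%), with 7.39% under an unadjusted p of 0.05. These counts describe genes chosen on the same contrast. Without the 2 ethanol arrays labelled replicate 1, the Malat1 log2 fold changes ran from 0.73 to 1.41 on average, from 0.23 to 1.91 within TGF-beta1 and from 0.40 to 1.22 within FGF2, and 0 probe sets passed.

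Neat1, the paraspeckle scaffold, read 9311 and 9105 on 1428083_at with ethanol and TGF-beta1, against 4199 and 13414 with TGF-beta1, and 21718 and 10455 with ethanol and FGF2, against 6803 and 7566 with FGF2. Both ethanol arrays were above both without it in FGF2, while in TGF-beta1 the arrays without ethanol held both the lowest and the highest value. The log2 fold change with ethanol was 0.68 ± 0.35 on average, with a 95% interval from −0.11 to 1.47. It was 0.26 without TGF-beta1 replicate 1, 1.10 without TGF-beta1 replicate 2, 0.42 without ethanol and FGF2 replicate 1, and 0.41 ± 0.44 without both ethanol arrays of replicate 1. Its second probe set, 1442881_at, stayed at or under 70.1 and was below the filter.

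Miat read 1368 and 1542 on 1455325_at with ethanol and TGF-beta1, against 384 and 2478 with TGF-beta1, and 3520 and 1550.1 with ethanol and FGF2, against 102 and 1505 with FGF2. The 2 arrays without ethanol were far apart in both growth factors, and the ethanol arrays lay between them in TGF-beta1 and above both in FGF2. The log2 fold change with ethanol was 1.49 ± 0.76 on average, with a 95% interval from −0.21 to 3.18. It was 0.59 without FGF2 replicate 1, 2.39 without FGF2 replicate 2, 0.83 without TGF-beta1 replicate 1, and 1.24 ± 1.09 without both ethanol arrays of replicate 1. The dimmer 1458903_at read 120.0 and 301 with ethanol and TGF-beta1, against 83.0 and 148, and 545 and 106 with ethanol and FGF2, against 49.7 and 61.8, and gave 1.23 ± 0.47.

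All 4 probe sets of Gas5 were higher with ethanol in TGF-beta1, and 2 of the 4 were in FGF2. Its brightest probe set, 1419291_x_at, read 11200.6 and 8600.3 with ethanol and TGF-beta1, against 6148 and 7796 with TGF-beta1, and 16936 and 12189 with ethanol and FGF2, against 8375 and 12741 with FGF2. In TGF-beta1 both ethanol arrays were above both without it on all 4 probe sets. In FGF2 that held for 1449410_a_at alone, and on 1424843_a_at both ethanol arrays, at 690 and 567, were below both FGF2 arrays, at 722 and 1064. These orders of 2 arrays against 2 are a description, given without the share of all probe sets that had them. The 4 log2 fold changes were 0.45 to 1.16 within TGF-beta1, where 1436222_at was 2.24-fold higher, −0.47 to 0.48 within FGF2 and −0.01 to 0.49 on average. For 1419291_x_at the average was 0.49 ± 0.21, and 0.28 ± 0.25 without the 2 ethanol arrays of replicate 1. The probe sets agreed less than those of Malat1, with r between 0.28 and 0.86 in 6 pairs.

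Meg3 and Rian, the imprinted pair, were dim. The 11 Meg3 probe sets ran from 1.15 to 111, and 86 of their 88 values were under 100. The brightest Meg3 probe set by mean, 1429257_at, read 45.2 and 38.5 with ethanol and TGF-beta1, against 60.9 and 58.1 with TGF-beta1, and 56.9 and 18.8 with ethanol and FGF2, against 59.7 and 102 with FGF2. Meg3 was low in every group, and its 3 probe sets in the fit differed with ethanol by −0.58 to −0.30 on the log2 scale on average. Its probe sets below the filter went both ways. In TGF-beta1, 1452905_at read 40.6 and 50.6 with ethanol, against 18.3 and 5.72 without, while 1452906_at read 1.15 and 1.29, against 10.2 and 38.2. The 95% interval for 1429257_at ran from −1.34 to 0.19, and its value was −0.35 without ethanol and FGF2 replicate 2 and −0.84 ± 0.44 without both ethanol arrays of replicate 1. Rian read 174 and 126 on 1452899_at with ethanol and TGF-beta1, against 70.5 and 99.3 with TGF-beta1, and 84.5 and 82.0 with ethanol and FGF2, against 53.6 and 105 with FGF2. Its 1428055_at read 113 and 149 with ethanol and TGF-beta1, against 41.5 and 53.3, and 105 and 85.2 with ethanol and FGF2, against 13.8 and 136. On these 2 probe sets the Rian groups overlapped in FGF2 and did not in TGF-beta1. Over all Rian probe sets, 25 of the 32 values were under 100. The average log2 fold change of 1452899_at was 0.39 ± 0.30, and it was 0.20 without FGF2 replicate 1 and 0.28 ± 0.42 without both ethanol arrays of replicate 1. The other 2 Rian probe sets ran from 1.03 to 76.1, below the filter. There 1440001_at was lower with ethanol and TGF-beta1, at 15.7 and 12.9, against 36.5 and 72.9 with TGF-beta1. In the same groups 1427580_a_at read 24.3 and 32.5, against 7.66 and 32.0.

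**Figure D2:**
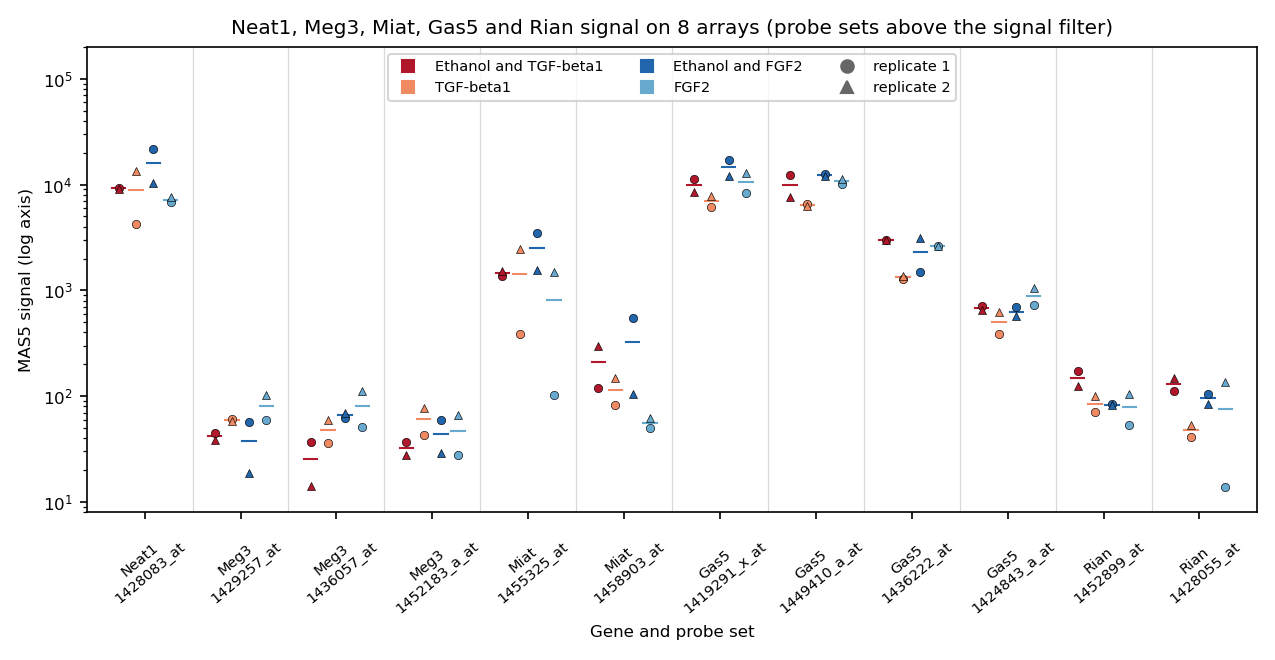
Array signal (linear units, log axis) of all probe sets of Neat1, Meg3, Miat, Gas5 and Rian above the signal filter. Groups run with ethanol with TGF-beta1 left of TGF-beta1 and ethanol with FGF2 left of FGF2. Circles mark replicate 1, triangles replicate 2 and short lines group means. On Miat 1455325_at the 2 arrays with FGF2 alone lie apart, at 102 and 1505, while the Meg3 signals stay between 14.0 and 111.

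The difference between the ethanol effects in the 2 growth factors was not used to choose the genes and was tested. None of the 27022 probe sets passed, and the smallest adjusted p was 0.902 with limma, while 4.11% had an unadjusted p under 0.05. Of the 19, 3 did: 1438403_s_at and 1427285_s_at of Malat1 and 1436222_at of Gas5, with log2 differences, TGF-beta1 minus FGF2, of 1.31 ± 0.43, 1.29 ± 0.38 and 1.44 ± 0.45. For 1418188_a_at the difference was 0.41 ± 0.44, with a 95% interval that includes 0 and starts at −0.57. Without both ethanol arrays of replicate 1, the 7 Malat1 probe sets ran from −0.98 to 1.32 in this difference. The 19 had a median of 0.46 beside 0.04 over all probe sets. Equal ethanol effects in both factors were thus not shown, and neither was a difference.

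Between the growth factors without ethanol, Malat1 and Gas5 were lower with TGF-beta1 than with FGF2 in most probe sets. For Malat1, 1438403_s_at read 643 and 790 with TGF-beta1, against 1418 and 2256 with FGF2, a log2 difference of −1.30 ± 0.30, and 1427285_s_at gave −1.12 ± 0.27. The other Malat1 probe sets lay between −0.91 and −0.63, apart from 1436202_at at 0.44 ± 0.54. Gas5 differed by −0.96 to −0.58, and 1436222_at read 1284 and 1374 with TGF-beta1, against 2610 and 2621 with FGF2. The sizes depended on the FGF2 arrays: Malat1 1418188_a_at, at −0.81 ± 0.31, was −0.41 without FGF2 replicate 2 and −1.22 without FGF2 replicate 1, and Gas5 1419291_x_at, at −0.58 ± 0.30, was −0.27 and −0.88 in the same order. Over the whole array limma called 0 probe sets (0%), the smallest adjusted p was 0.427, and each of the 19 had an adjusted p of 0.9998. At an unadjusted p under 0.05 the 19 held 9, all lower with TGF-beta1 (6 of Malat1 and 3 of Gas5), where 3.73% of all probe sets passed and 1.57% were lower, but probe sets of one gene share their transcript. Neat1 differed by 0.07 ± 0.50, Miat by a value with an interval from −1.19 to 3.60 and Rian by 0.11 ± 0.42, and these signs turned when 1 array was left out, to −0.77 for Neat1 and −0.11 for Miat without TGF-beta1 replicate 2, and to −0.60 for Miat and −0.26 for Rian without FGF2 replicate 1. This comparison uses the same 4 arrays that serve the ethanol comparisons as their reference, so a low value in TGF-beta1 alone enters both. With ethanol, none of the 27022 passed (0%; 3.10% at an unadjusted p under 0.05, none of them among the 19), and the Malat1 probe sets differed by −0.40 to 0.17, where both ethanol arrays of replicate 1 stood with the other growth factor by Fn1.

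**Figure D3:**
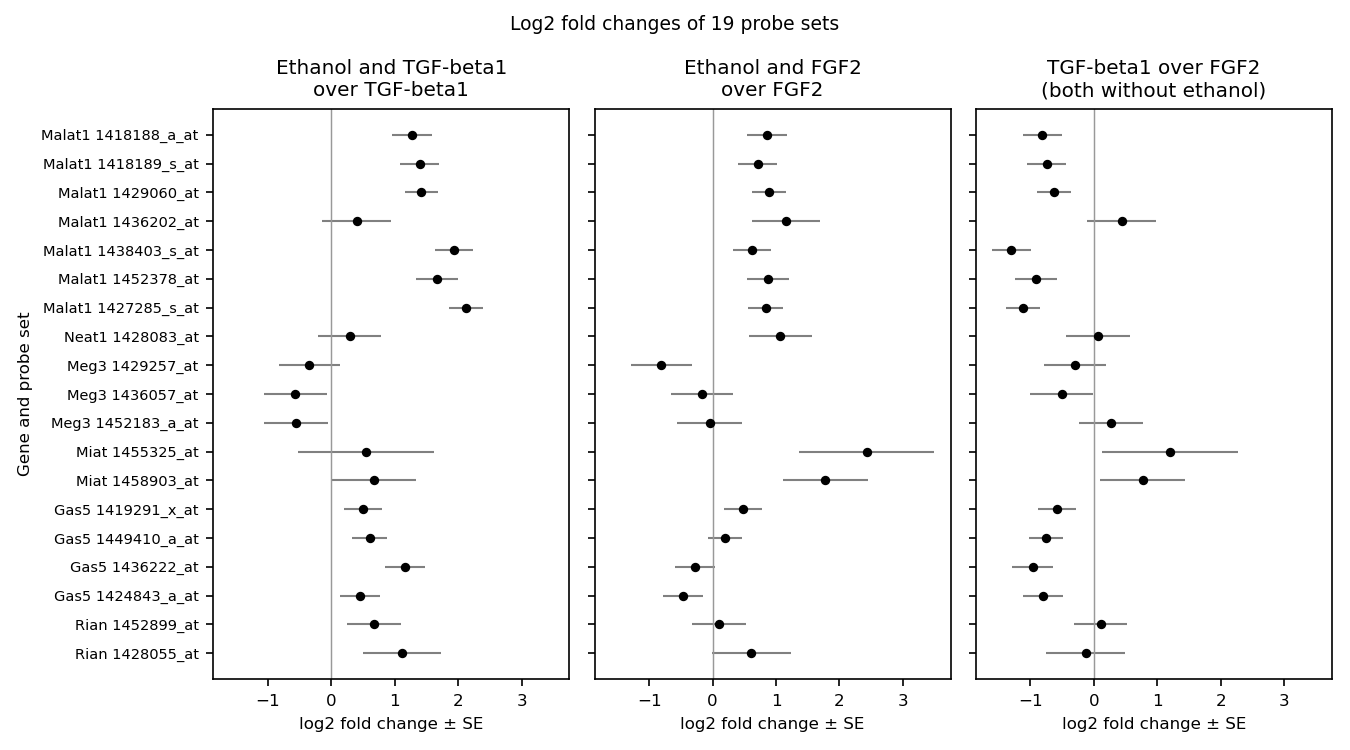
Log2 fold change ± SE of the 19 probe sets in the fit, in 3 panels. They show ethanol with TGF-beta1 over TGF-beta1, ethanol with FGF2 over FGF2, and TGF-beta1 against FGF2 without ethanol. All 7 Malat1 values in the first panel lie above 0, from 0.40 to 2.13, while 6 of the 7 lie below 0 in the last.

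Each array carries 3′ and 5′ probe sets for control transcripts, and their ratio shows how far the labelled RNA reaches toward the 5′ end, a higher ratio meaning less of it. For Gapdh it was 1.93 and 2.06 with ethanol and TGF-beta1, against 1.70 and 2.20 with TGF-beta1, and 3.33 and 3.48 with ethanol and FGF2, against 1.64 and 2.20 with FGF2. The beta-actin ratio was 2.78 and 3.07, against 2.36 and 3.03, and 3.57 and 4.20, against 2.35 and 3.61, in the same order. Both ratios overlapped between ethanol and no ethanol in TGF-beta1. In FGF2 the beta-actin ratios overlapped and the Gapdh ratios did not, the ethanol arrays having the highest Gapdh ratios of all 8. The remaining control transcripts, Tfrc and Pcx, had 5′ signals of 5.10 to 49.9 and of 27.5 to 95.3, too low for a usable ratio.

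Over the 8 arrays, Pearson's r of the log2 signal with the Gapdh ratio was 0.69 for Malat1 1418188_a_at (exact permutation p = 0.0658, 0.598 adjusted over all 27022 probe sets), and Spearman's rho was 0.62 (exact permutation p = 0.115, 0.710 adjusted). Without the 2 arrays farthest from the median ratio, both of ethanol and FGF2, r was 0.39 over 6 arrays. For the same probe set r was 0.66 over the 4 ethanol arrays and 0.43 over the 4 without ethanol, and 0.70 with the beta-actin ratio over all 8. For Neat1 r was 0.74 (exact permutation p = 0.0342, adjusted 0.578), with rho 0.81 (exact permutation p = 0.0218, adjusted 0.605) and r 0.71 without those 2 arrays. For Miat 1455325_at r was 0.70 (exact permutation p = 0.0410, adjusted 0.583), with rho 0.90 (exact permutation p = 0.00456, adjusted 0.605), r 0.93 without those 2 arrays, and r 0.96 over the 4 arrays without ethanol, too few for a test. For Gas5 1419291_x_at r was 0.75 (exact permutation p = 0.0343, adjusted 0.578), with rho 0.60 (exact permutation p = 0.132, adjusted 0.716) and r 0.50 without the 2. The permutation p treat all 8 arrays as exchangeable, although they form 4 groups of 2. Malat1 was chosen as higher with ethanol, and the arrays with ethanol and FGF2 had the highest ratios, so its r is not independent of that choice. After adjustment 0 of the 27022 probe sets passed with either coefficient (2281 had an unadjusted exact p under 0.05 for r), and the smallest adjusted p was 0.268 for r and 0.558 for rho. The other 15 probe sets of the 19 had r between −0.44 and 0.64. Of the 7 Malat1 probe sets, 1418188_a_at had the highest r, and the others ran from 0.23 (1436202_at) to 0.64 (1429060_at). On 1427285_s_at, with the largest ethanol difference, r was 0.40, rho 0.14 and r without those 2 arrays −0.03.

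With the Gapdh ratio in the model, the Malat1 log2 fold change for ethanol was 0.60 ± 0.35 on average for 1418188_a_at and 0.34 to 2.00 across the 7 probe sets. Within TGF-beta1 it was 0.51 to 2.15 across them, and 5 of the 7 passed the adjusted threshold, where 0.696% of all probe sets did, a count that again describes genes chosen on ethanol. Within FGF2 it was −0.66 to 3.49, 5 of the 7 lay below 0, and 0 passed, against 0.411% of all. The average for Gas5 1419291_x_at became 0.07 ± 0.34. The average for Neat1 turned to −0.13 ± 0.57, for Miat to −1.76 ± 0.63 and for Rian to −0.17 ± 0.45. The slope on the ratio comes from the 4 pairs of arrays within groups alone. In FGF2, where the Gapdh ratios of the 2 groups do not overlap under the labels as given, ethanol and the ratio cannot be told apart. Both the slope and that lack of overlap rest on those labels. By Fn1, the ethanol arrays labelled replicate 1, with ratios of 1.93 (TGF-beta1) and 3.33 (FGF2), stood with the other growth factor. No fit exchanged those 2 arrays.

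**Figure D4:**
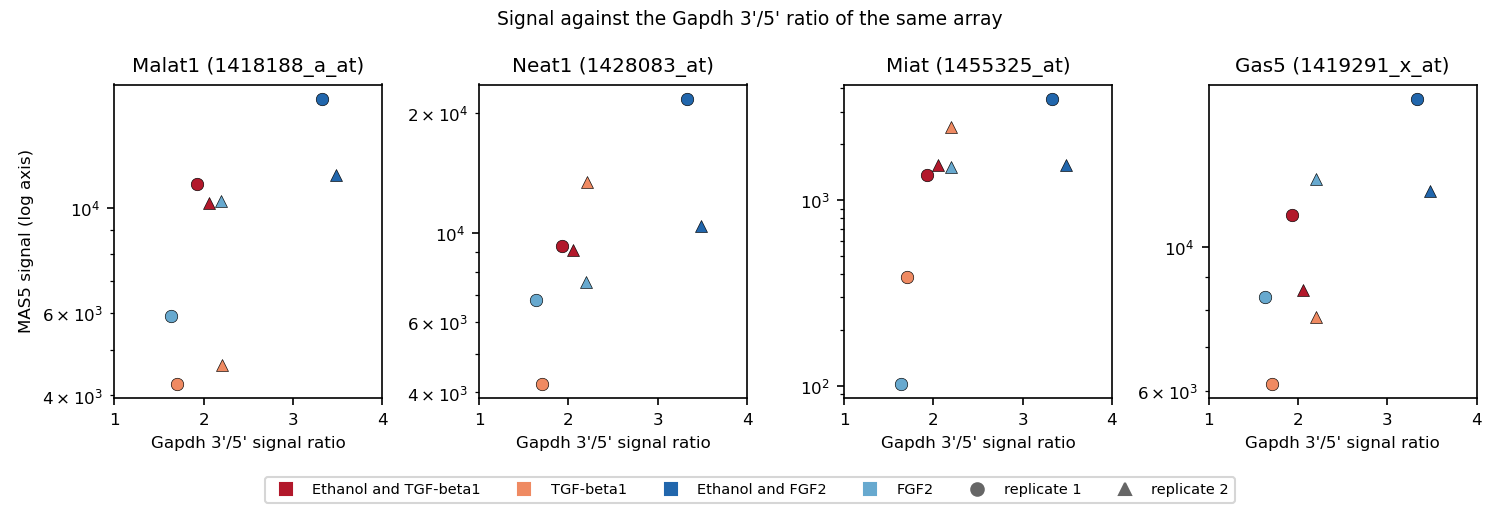
Signal (linear units, log axis) of the brightest Malat1, Neat1, Miat and Gas5 probe sets against the Gapdh 3′/5′ signal ratio, 1 point per array, coloured by group and shaped by replicate. The 2 arrays with ethanol and FGF2 lie alone at ratios of 3.33 and 3.48, and the other 6 lie between 1.64 and 2.20.

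Genes of G2/M and mitosis moved with ethanol too, while the means of the cell type lists below overlapped between arrays with and without it. The mean log2 signal of 25 genes of G2/M and mitosis was 6.99 to 7.94 on the ethanol arrays, against 9.11 to 10.9 without ethanol, all 25 were lower with ethanol and 23 of them passed the adjusted threshold, where 0.955% of all probe sets passed as lower. Hmmr, Prc1 and Nusap1, which act on the mitotic spindle, had the largest changes, with log2 fold changes of −3.65 ± 0.43, −3.58 ± 0.28 and −3.58 ± 0.43. The lowest array without ethanol was FGF2 replicate 2, at 9.11, which also had the highest signal of the 4 without ethanol on 5 of the 7 Malat1 probe sets. Neuronal markers, 10 of 13 above the filter, averaged 8.15 to 8.31 with ethanol, against 6.75 to 8.19 without, and FGF2 replicate 2 was the highest of those without. Of the 10 neuronal markers, 7 had a log2 fold change above 0 for ethanol on average, and 1 passed as higher, beside 0.0999% of all probe sets. That 1 was Celf4, an RNA-binding protein of neurons, at 2.76 ± 0.43. Tubb3 at 1.60 ± 0.39 and Dcx at 1.56 ± 0.36 did not pass, with adjusted p of 0.122 and 0.101 by limma. Of the 10, 3 had an unadjusted p under 0.05, beside 9.4% of all probe sets. Gap43, Elavl4 and Neurod1 stood at −0.03, −0.02 and −0.06, and Stmn2 and Rbfox3 were below the filter. Microglia and macrophage markers, 3 of 7 above the filter, averaged 6.06 to 6.62 with ethanol and 5.41 to 6.71 without, astrocyte markers, 7 of 7, 11.6 to 11.8 with and 11.0 to 11.7 without, and oligodendrocyte markers, 2 of 6 on the array, 10.4 to 11.4 with and 10.0 to 11.0 without. The part of cycling and neuronal expression in the Malat1 values was not tested.

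Other long noncoding RNAs, and transcripts of proteins that work with these RNAs, had 0 calls in each of the 6 comparisons by limma. Over all 27022 probe sets, 1.05% were called for ethanol on average, 0.437% within TGF-beta1 and 0 in the other 4 comparisons. Lists this short would hold few or 0 calls at those shares, so the 0 says little about the lists. Of 31 other long noncoding RNAs on the array 22 passed the filter, and 3 had an unadjusted p under 0.05 for ethanol on average, where 9.4% of all probe sets did. Their median log2 fold change was 0.20, beside 0.06 over all probe sets. Zfas1, a small nucleolar RNA host, and Tug1 had the highest mean signals, with log2 fold changes of 0.49 ± 0.19 and −0.13 ± 0.19. Kcnq1ot1, the imprinted antisense RNA of the Kcnq1 locus, was singled out after its values were seen: it read 452 and 1034 with ethanol and TGF-beta1, against 87.4 and 212, and 563 and 1115 with ethanol and FGF2, against 79.4 and 553. Its log2 fold change was 1.94 ± 0.53, with an adjusted p of 0.194 by limma. Of 15 small nucleolar RNA host genes 13 passed the filter, 3 of them under an unadjusted p of 0.05 beside that same 9.4%, with a median of 0.11, and Snhg1 had −0.05 ± 0.25. A list for the Dlk1-Dio3 domain, home of Meg3 and Rian, also included genes that only neighbour it. It had 4 of 6 genes above the filter, 0 of them under an unadjusted p of 0.05, and a median of 0.08. Mirg, an RNA of the domain itself, had 0.31 ± 0.34. The neighbours Ppp2r5c and Wars had the highest mean signals, at −0.02 ± 0.26 and 0.05 ± 0.24, so the median does not describe the domain alone.

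There were also 0 calls for transcripts of the bodies that Malat1 and Neat1 join, where 1.05% of all probe sets were called for ethanol on average. The 18 paraspeckle genes had a median of −0.17 for ethanol on average, 5 of them above 0 and 3 under an unadjusted p of 0.05, beside 9.4% of all probe sets. Those 3, Sfpq, Pspc1 and Tardbp, chosen after their values were seen, stood at −0.61 ± 0.23, −0.64 ± 0.19 and −0.64 ± 0.16. The 2 with the highest mean signals were Hnrnpk at 0.07 ± 0.23 and Ewsr1 at −0.13 ± 0.25. The 24 nuclear speckle and splicing genes had a median of 0.00, 0 of them under an unadjusted p of 0.05, with Srsf1 at −0.02 ± 0.26 and Sf1, a branch-point factor, at 0.00 ± 0.25. The 7 genes of the Upf1 decay pathway, which acts on Gas5, had a median of 0.11, also with 0 of them, and Upf1 stood at −0.26 ± 0.23 and Smg1 at 0.07 ± 0.18.

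Genes whose signal followed each RNA most closely over the 8 arrays were found among 12067 others above the filter, by Pearson's r of log2 signals. For Malat1 1418188_a_at they were Fth1 (ferritin heavy chain; r = 0.98), Prl2b1 (0.96) and Synj1 (synaptojanin; 0.96). For Neat1 they were Diras1 (0.98), Mirg (an RNA of the Dlk1-Dio3 domain; 0.97) and Slc38a7 (0.96). Miat was closest to Dpp10 (0.99), Hapln1 (0.98) and Gda (0.97), and Gas5 to Gm2087 (0.98), Usp20 (0.98) and Sik2 (0.98). For the dim Meg3 and Rian the nearest were Grb2 (0.97) and Ddhd1 (0.92). Among the brightest probe sets of the 6 RNAs the closest pair was Malat1 with Gas5, at 0.92, while Neat1 and Miat stood at 0.75. The points share their arrays, and no p is attached to these values.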

How the data were processed

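RNA of NS5 cells was measured on 8 Affymetrix Mouse Genome arrays, 2 per group. The deposited intensity values are linear signals made by the authors with MAS5 and GCOS, per the submitters' processing notes, which give no versions; their 2% trimmed mean is 500 on every array. Probe sets were named by the platform annotation, and of 45037 that are not Affymetrix controls, 34945 had 1 symbol, 932 several and 9160 none; positions and promoters are RefSeq, GRCm38.p6. The number of arrays limits the precision.

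The 25th percentile of all signals, 23.66, was added to each signal before log2 was taken, and the 27022 probe sets at or above the 40th percentile of their mean were tested. A fold change on this scale understates changes of dim probe sets. limma 3.58.1 in R 4.3.3 fitted 4 group means with a trend (4 residual and 5.69 prior degrees of freedom), with Benjamini-Hochberg adjustment over all probe sets and a threshold of 0.05. Signals, means and SD are linear without the constant. The fit was tested on simulated data. Correlations with the Gapdh ratio were tested over all 40320 orders; their p were adjusted over all probe sets rather than over the member probe sets, as first planned. The brightest probe set by mean log2 signal stands for a gene. Genes named from a list were those past the threshold (the 3 with the largest change where more than 5 passed), otherwise the 2 with the highest mean signal. The genes and lists were chosen with earlier results of these data known. Alternatives are given in the closing section.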

Additional observations from a re-analysis of the deposited data

How the results depend on the processing

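The count of probe sets of the 6 RNAs past the threshold for ethanol on average was 4, and became 1 with the gene table (1 probe set per gene), 1 without a trend, 1 with the beta-actin ratio as covariate, 0 with the Gapdh ratio as covariate and 0 without both ethanol arrays labelled replicate 1. Leaving out 1 array gave 1 to 6, with 1 without ethanol and TGF-beta1 replicate 1 or either TGF-beta1 array and 6 without FGF2 replicate 2. Within TGF-beta1 the count was 2, and became 5 with quantile normalization, 5 with the Gapdh ratio, 1 with the beta-actin ratio and 0 with arrays centred on their median, with the gene table, without a trend, with the replicate block or without both ethanol replicate 1 arrays. Leaving out 1 array gave 0 to 5, with 5 without either FGF2 array and 0 without any of the other 6. The log2 fold change of Malat1 1418188_a_at, 1.07, became 0.60 with the Gapdh ratio and was 0.87 to 1.27 with 1 array left out. Its r with the Gapdh ratio was 0.54 to 0.78 with 1 array left out. It passed an unadjusted exact permutation p of 0.05 without ethanol and TGF-beta1 replicate 1 (0.77) and without TGF-beta1 replicate 2 (0.78). For TGF-beta1 against FGF2 without ethanol, the sign turned without TGF-beta1 replicate 2 for Neat1 (−0.77), Miat (−0.11) and Rian (−0.08), and without FGF2 replicate 1 for Neat1 (−0.01), Miat (−0.60) and Rian (−0.26). The highest values with 1 array left out were 0.90 for Neat1, 3.003 for Miat and 0.48 for Rian. For the 6 RNAs, the other 4 comparisons kept a count of 0 under all 20 alternatives. Same-numbered arrays deviated together with r from −0.29 to 0.54 in 6 pairs, so the numbers were not shown to pair them, and with the replicate block the average count was 3. Over all probe sets, 285 passed for ethanol on average, against 0 with the Gapdh ratio or without both ethanol replicate 1 arrays, 92 with the beta-actin ratio, 189 without a trend and 112 to 381 with 1 array left out; within TGF-beta1, 118 passed, against 0 without a trend, with the replicate block or without both arrays, 188 with the Gapdh ratio, 67 with the beta-actin ratio and 0 to 222 with 1 array left out. In the other 4 comparisons, where 0 passed, the Gapdh ratio gave 111 within FGF2, 351 for the difference between factors and 499 for TGF-beta1 against FGF2 with ethanol, the beta-actin ratio 65 in the last, no signal filter 19 within FGF2, leaving out FGF2 replicate 2 gave 110 within FGF2, and other settings gave at most 2. Centring moved the median of all probe sets for ethanol on average to −0.07, against 0.06. Unless named here, the cause of a change was not tested, and dim signals limit what Meg3 and Rian can show.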
